A study of Oniscidea with 6 samples.

Results

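Pck1, Fbp2, Gapdhs, Fh1 and Idh2, enzymes of gluconeogenesis, glycolysis and the TCA cycle, were followed in woodlice (Oniscidea, land-living isopod crustaceans, several of which curl up into a ball as a defence). They are 5 of 24421 features in the deposited table, which names its features by mouse gene symbols, with Entrez identifiers 18534, 14120, 14447, 14194 and 269951 in that order. They were chosen by their read counts in these same libraries, as genes of the pathway seen to be well counted, and with the difference between the groups already known. Their levels and that difference are therefore given as a description, with no test. All 5 had reads. The choice had no numerical limit: Fh1 had the lowest mean of the 5, at 32.4 over the 6 libraries, and 14 other genes of the central carbon lists used below had a higher mean than Fh1 without being among the 5, the nearest of them Pgd at 32.8.

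Poly(A) RNA of fresh tissue was sequenced in 3 rolling and 3 stretching samples, with no treatment in either group. The labels give no species below the suborder, and no sex, age, stage or tissue, and do not state whether replicates are different animals, so the spread between them may be technical. They name no genotype, strain or agent for either group. A symbol is a mouse name given to reads in the deposited table. It is not an established woodlouse gene, and no source used here describes how woodlouse reads were given mouse names. Roles given below are those of the mammalian enzymes.

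Glycolysis breaks glucose down to pyruvate, and gluconeogenesis runs the path backwards from smaller molecules, sharing its reversible steps and replacing the irreversible ones with enzymes of its own. Pyruvate enters the mitochondrion and feeds the TCA cycle, which oxidises acetyl groups and supplies both electrons for the respiratory chain and the oxaloacetate from which gluconeogenesis starts. In crustaceans, as in other animals, muscle and the digestive gland draw heavily on these paths.

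Counted reads per library were 416821 to 1122154 in rolling and 403971 to 544157 in stretching. The deposited values are reads divided by one size factor per library, here called normalised read counts, in which 3 reads in a library correspond to 1.58 to 3.67. After scaling, the library sums ran from 284281 in rolling 1 to 1219550 in rolling 3, and the 20 features with the highest mean held 40.1% of the reads of rolling 1 and 79.5% of those of rolling 3. Of the 2948 features with a mean of at least 10 that were tested, 2217 differed between the groups (limma, Benjamini-Hochberg adjusted p at most 0.05), which is 75.2%. Of these, 1114 were higher and 1103 lower in rolling. Muscle markers summed to 16320 to 70612 per rolling library and 12036 to 15170 per stretching library, with 10 of 32 at 0 reads, among them the creatine kinase Ckm and 6 troponin subunits or isoforms (Tnnc1, Tnni1, Tnni2, Tnni3, Tnnt1 and Tnnt2). Digestive enzymes summed to 617 to 1855 in rolling and 1377 to 1641 in stretching, with 6 of 19 at 0 reads, among them the trypsins Prss1 and Prss2. Single digestive enzymes differed: of 7 tested, 3 were higher and 4 lower in rolling. Amy1 had 2848 reads in rolling and 10 in stretching, and Cpb1 had 1 and 69. The part of these tissues in the results below was not tested, and in bulk samples fewer cells of a type and less RNA per cell cannot be told apart.

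The 5 enzymes did not move as a group. Pck1 and Fh1 were counted almost wholly in the rolling libraries, Fbp2 almost wholly in the stretching libraries, Gapdhs mainly there but with reads in every library, and Idh2 was counted in all 6 with a smaller excess in stretching libraries. For none of the 5 did rolling and stretching values overlap, which also held for 78.7% of all tested features. Nothing is read from this count, since the same contrast was known when the 5 were chosen. Together the 5 held 0.0468% to 0.302% of the counted reads of a rolling library and 0.241% to 0.704% of those of a stretching library.

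**Figure D1:**
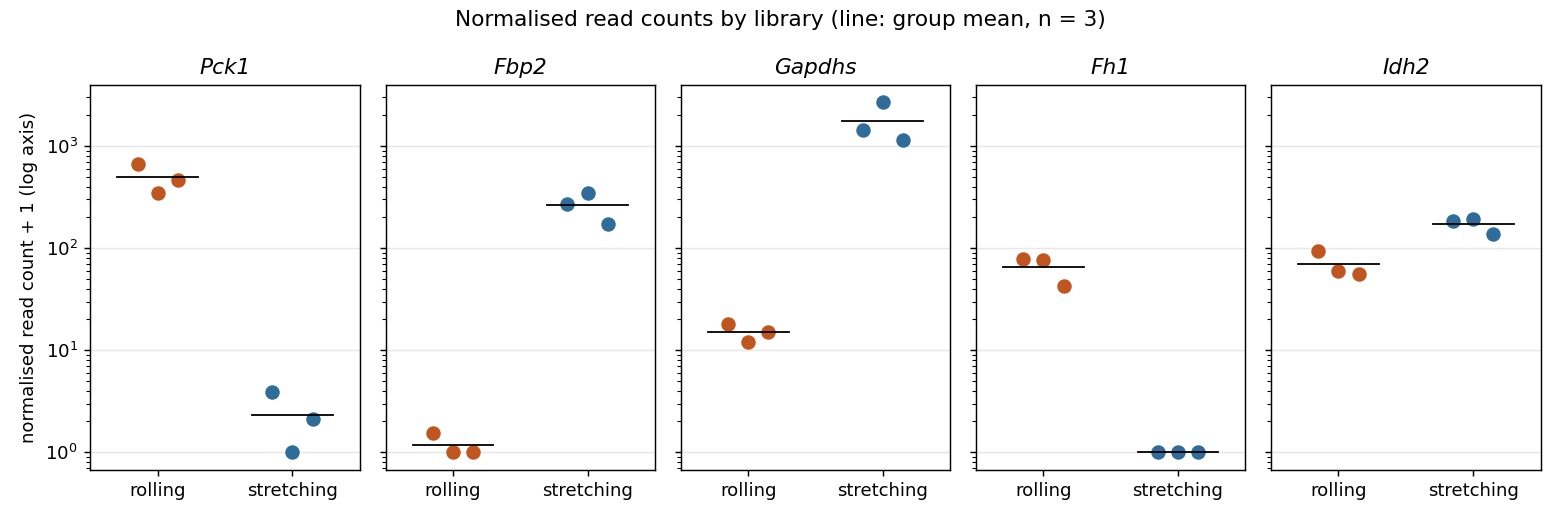
Normalised read counts plus 1 (log axis) of the 5 enzymes in each of the 3 rolling and 3 stretching libraries, with a line at the group mean. Pck1 and Fh1 lie high in rolling and at or near 0 reads in stretching, Fbp2 lies high in stretching and at or near 0 reads in rolling, Gapdhs lies high in stretching and between 11.0 and 16.9 in rolling, and the groups of Idh2 come closest, at 92.2 in rolling 1 and 135 in stretching 3.

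Pck1 encodes the cytosolic phosphoenolpyruvate carboxykinase, which turns oxaloacetate into phosphoenolpyruvate and so commits carbon to gluconeogenesis. Its normalised read count was 672, 345 and 460 in rolling 1, 2 and 3 and 2.87, 0 and 1.11 in stretching 1, 2 and 3. Every rolling library was high and every stretching library stood at 3 reads or fewer, and the lowest rolling value was 120 times the highest stretching value. The means were 492 ± 166 and 1.33 ± 1.45 (SD, n = 3), resting on 1980 reads against 4. The difference was 7.88 (SE 0.53) on the log2(value + 1) scale, and the ratio of reads adjusted for depth was 385 with a 95% exact counting interval of 150.3 to 1416. Of the 4 stretching reads 3 lay in stretching 1, without which the ratio was 973. This interval, like the others given for reads, covers counting error only.

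Fbp2 encodes fructose-1,6-bisphosphatase 2, the form found in mammalian muscle, which removes a phosphate from fructose-1,6-bisphosphate further up the same path. It stood at 0.527, 0 and 0 in rolling 1, 2 and 3 and at 270.2, 344 and 172 in stretching 1, 2 and 3. The rolling group held a single read, in rolling 1, against 741 in stretching. The means were 0.176 ± 0.304 and 262 ± 86.5 (SD, n = 3), a log2 difference of -7.78 (SE 0.42). The ratio of depth-adjusted reads was 952 in favour of stretching, with a counting interval of 170.3 to 37642. Without rolling 1 no rolling read remained, and stretching was at least 152-fold higher when rolling was set to 3 reads as its floor. Both enzymes belong to gluconeogenesis, and they lay in opposite groups. Of all tested features, 37.8% were higher and 37.4% lower in rolling. Of 7 muscle markers tested, 3 were higher in rolling, 1 was lower and 3 were not called. Those higher in rolling were Acta1, Myh3 and Ttn. The lower one was Myh6, with 33 reads in rolling and 4405 in stretching. Without the actins Acta1 and Actc1, which held most reads of the muscle markers, the sums overlapped, at 863 to 1803 per rolling library and 620.4 to 3564 per stretching library. This overlap rested on Myh6, which stood at 3081, 163 and 1158 in stretching 1, 2 and 3. The part of muscle in the value of Fbp2 was not tested.

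Gapdhs encodes a glyceraldehyde-3-phosphate dehydrogenase, the enzyme of a reversible step shared by glycolysis and gluconeogenesis, and is the form of mammalian sperm. It was the most abundantly counted of the 5. Its normalised read count was 16.9, 11.0 and 14.1 in rolling 1, 2 and 3 and 1445, 2683 and 1142 in stretching 1, 2 and 3. Unlike Pck1 and Fbp2, it was counted in every library of its low group, with 32, 9 and 13 reads, and the lowest stretching value was 67.7 times the highest rolling value. The means were 14.0 ± 2.93 and 1757 ± 817 (SD, n = 3), a log2 difference of -6.79 (SE 0.41). The reads numbered 54 against 4909, which gave a depth-adjusted ratio of 117 (counting interval 89.3 to 156). Of 20 markers of the mammalian male germline, 8 had no read, among them both protamines (Prm1, Prm2) and both transition proteins (Tnp1, Tnp2). The others summed to 6.52 to 15.9 per rolling library and 84.2 to 105 per stretching library, a gap that rested on 2 genes, Akap4 and Zpbp, with 3 reads each in rolling against 115 and 125. Without these 2, the sums overlapped, at 3.26 to 14.7 and 7.67 to 11.3. Single markers with few reads went either way: Acr had 11 reads in rolling and 9 in stretching, Spaca1 6 and 0, and Catsper1 0 and 4. The part of these markers in the value of Gapdhs was not tested.

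Fh1 encodes fumarase, which adds water to fumarate to give malate in the TCA cycle. It stood at 77.5, 75.9 and 41.3 in rolling 1, 2 and 3 and had no read in any stretching library. The rolling mean was 64.9 ± 20.4 (SD, n = 3), from 147, 62 and 38 reads. With the stretching group set to a floor of 3 reads, rolling was at least 64.1-fold higher. This bound was 40.5 without stretching 1, where less depth is left to set the floor. The fitted log2 difference of 5.99 (SE 0.41) depends on the pseudocount and is no bound.

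Idh2 encodes the NADP-dependent isocitrate dehydrogenase of the mitochondrion, which turns isocitrate into 2-oxoglutarate. It had the smallest difference of the 5. Its normalised read count was 92.2, 58.8 and 55.4 in rolling 1, 2 and 3 and 185, 192 and 135 in stretching 1, 2 and 3. The groups stood apart on this scale, with the lowest stretching value 1.47 times the highest rolling value. The means were 68.8 ± 20.4 and 171 ± 31.1 (SD, n = 3), a log2 difference of -1.32 (SE 0.36). The reads numbered 274 against 485, which gave a depth-adjusted ratio of 2.27 (counting interval 1.96 to 2.65).

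Idh2 was the only one of the 5 whose groups overlapped when reads were divided by the library total in place of the size factor. Per 1000000 counted reads it stood at 324, 115 and 45.4 in rolling 1, 2 and 3 and at 423, 421 and 224 in stretching 1, 2 and 3, so that rolling 1 lay above stretching 3. The direction of the mean difference was the same on both scales. The rolling libraries spread more widely on the scale of library totals for each of the 4 enzymes counted in all of them: from the lowest to the highest rolling library, Pck1 spanned 6.27-fold on that scale against 1.95-fold in normalised values, Gapdhs 5.12-fold against 1.53-fold, Fh1 8.05-fold against 1.88-fold, and Idh2 7.14-fold against 1.66-fold. In each case rolling 1 was highest on the scale of library totals. Rolling 3 was lowest on it.

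**Figure D2:**
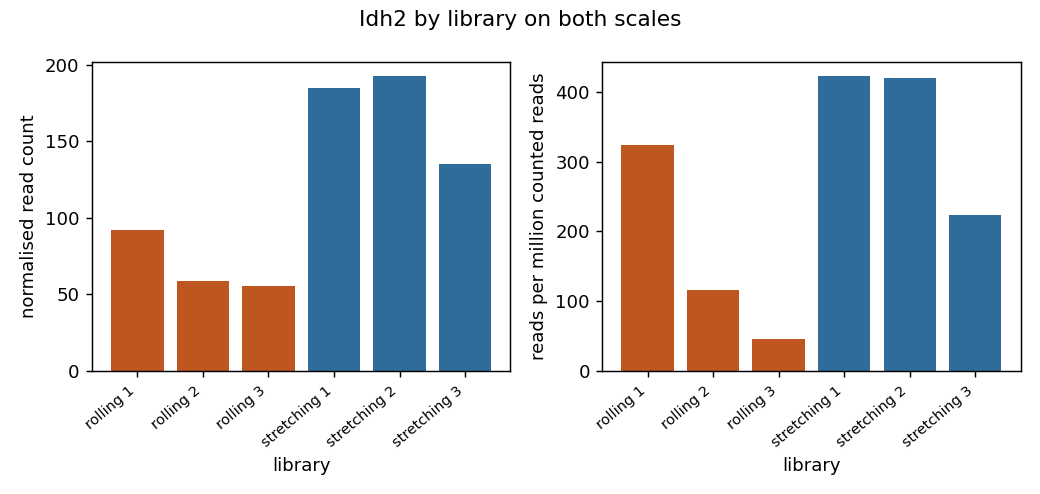
Idh2 in each library as normalised read count (left) and as reads per 1000000 counted reads (right). The rolling libraries (orange) lie below the stretching libraries (blue) on the left, while on the right rolling 1, at 324, exceeds stretching 3, at 224.

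Isozymes of the same enzymes were then examined, since reads of a woodlouse gene could be counted under more than one mouse symbol. The treatment of reads that match several features is not stated, so the division of reads between isozymes is uncertain. Pck2, the mitochondrial phosphoenolpyruvate carboxykinase, had 5, 10 and 2 reads in rolling 1, 2 and 3 and none in stretching. Pck1 and Pck2 together had 1997 reads in rolling and 4 in stretching, so the second isozyme left the pattern in place. Fbp1, the liver form of fructose-1,6-bisphosphatase, had 9 reads in rolling and 8 in stretching, with 2 to 4 in every library. The sum of Fbp1 and Fbp2 was 2.78 ± 0.425 in the rolling and 265 ± 86.0 in the stretching group (SD, n = 3). In rolling, most of the 10 fructose-bisphosphatase reads were therefore those of Fbp1, whereas in stretching Fbp2 held 98.1% to 99.3% of 158 to 306 reads per library.

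Gapdh, the form found in most mammalian cells, had no read in any library. At 3 reads, a count of 0 allows up to 0.000267% to 0.000743% of the counted reads of a library. All reads of this enzyme, in both groups, therefore lay under Gapdhs. Among the isocitrate dehydrogenases, Idh3a, the catalytic subunit of the NAD-dependent enzyme of the TCA cycle, stood at 15.3, 18.4 and 25.0 in rolling and 8.62, 31.7 and 19.9 in stretching. The groups overlapped, and the difference of 0.10 (SE 0.50) was not called (limma adjusted p 0.86). Its sign turned with TMM scaling and with library totals, among other settings. The other forms had few reads: the cytosolic Idh1 had 7 in rolling and 2 in stretching, Idh3g had 0 and 1, and Idh3b had none. Idh2 held 68.0% to 85.0% of the isocitrate dehydrogenase reads of a rolling library and 85.0% to 95.1% of those of a stretching library. The sum of the 5 forms was 90.7 ± 15.5 in the rolling and 192 ± 35.7 in the stretching group (SD, n = 3).

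**Figure D3:**
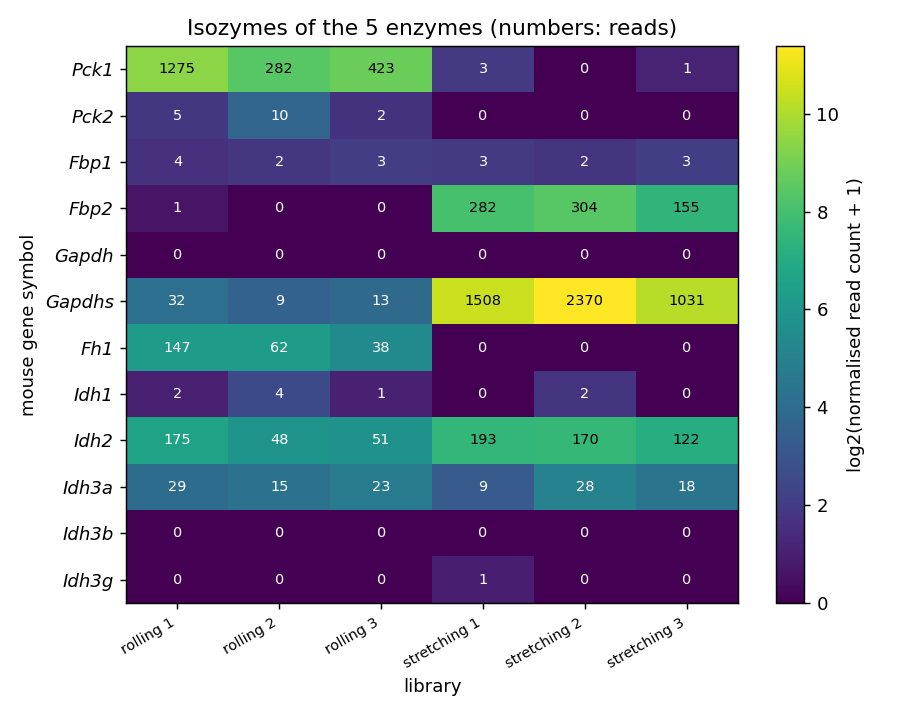
Isozymes and subunits of the 5 enzymes by library, with the colour giving log2(normalised read count + 1) and the number in each cell giving the reads. Pck2, Fbp1 and Idh1 have 10 reads or fewer in any library, and Gapdh and Idh3b have none.

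The other genes of central carbon metabolism were taken from 9 lists that cover gluconeogenesis, glycolysis, lactate and glycerol phosphate, the entry of pyruvate, the TCA cycle, anaplerosis and shuttles, the pentose phosphate pathway, glycogen and sugar entry, and the respiratory chain with ATP synthase. Without the 5 enzymes, they hold 219 genes in the table, of which 58 had no read, 130 had reads but a mean under 10, and 31 were tested. Of these 31, 19 rose and 9 fell in rolling and 3 did not pass the threshold, where 37.8% of all tested features rose and 37.4% fell. The median log2 difference was 3.22, against 0.10 over all tested features. The median size regardless of sign was 4.38 against 2.82, and 4.41 against 2.82 when features without a read in a group are set to their bound. At least 30 reads in a group and at most 3 in the other were found for 14 of the 31, and for 24.4% of all tested features. A gene counted in a single group reaches the mean of 10 only through that group and so had to differ. These counts are therefore given as a description, and no p is given below for genes with at most 9 reads in a group. Where the mean of the lower group was under 10, a gene likewise passed the filter only through the other group. An adjusted p given for such a gene is a description and no support for a difference. Every one of the 28 calls was kept under all 16 alternatives in which the gene was tested. For the 14 genes counted almost wholly in a single group, this was close to fixed in advance and lends the calls no support.

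**Figure D4:**
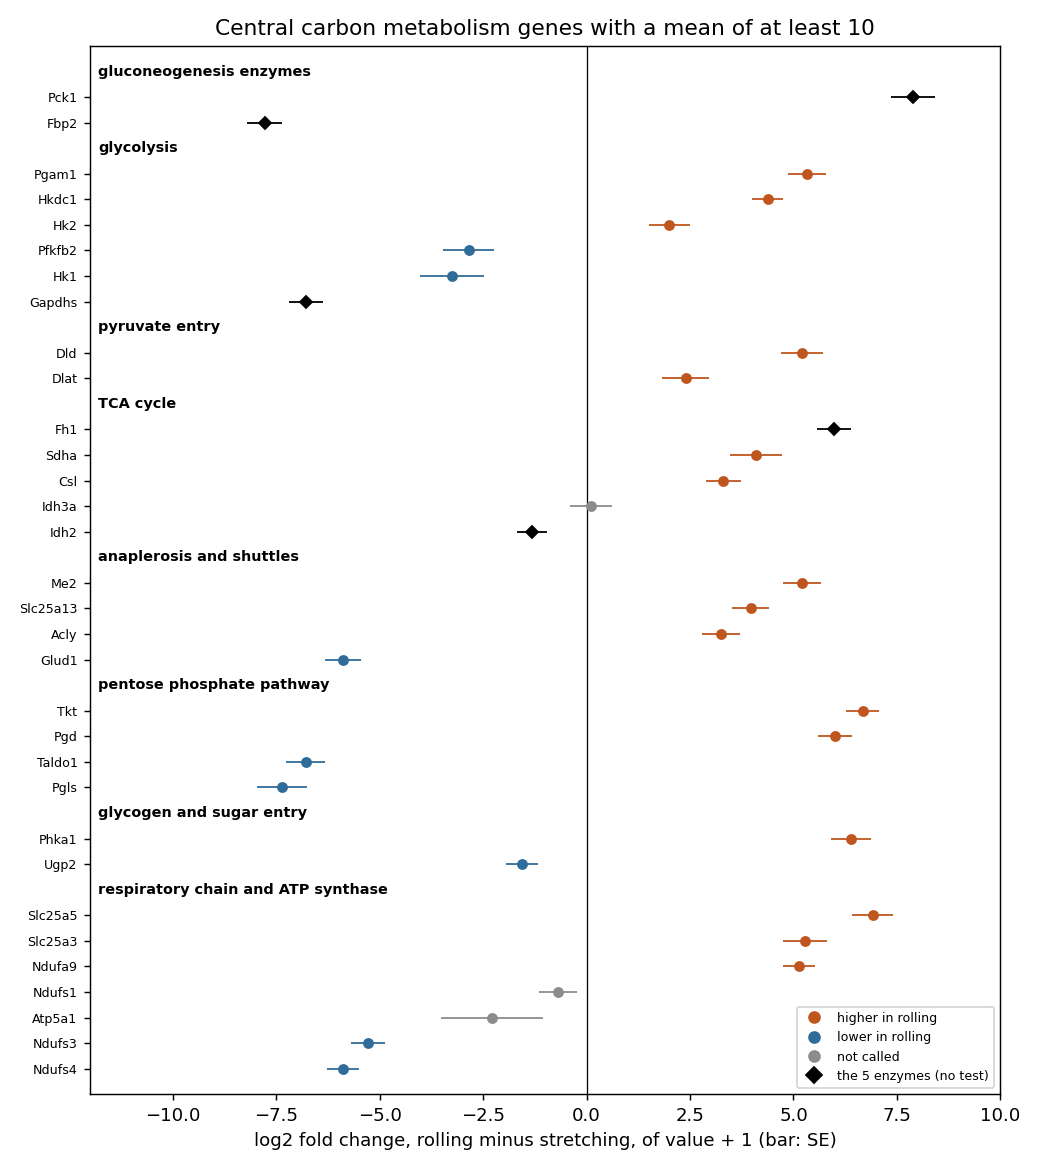
Log2 fold change, rolling minus stretching, of value + 1, with its standard error, for 32 of the 36 genes of the 9 lists with a mean of at least 10. Genes of each list lie on both sides of 0 except for the entry of pyruvate, where both tested genes are higher in rolling. The 5 enzymes, drawn as diamonds, span 7.88 for Pck1 to -7.78 for Fbp2.

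In gluconeogenesis, no gene other than Pck1 and Fbp2 reached the level for testing. Pyruvate carboxylase, Pcx, which makes the oxaloacetate that Pck1 uses, had 3 reads in rolling and 1 in stretching. The glucose-6-phosphatase G6pc, which releases free glucose at the end of the path, had 6 and 8 reads, G6pc2 had 0 and 2, and G6pc3 had none. The enzymes before and after the steps of Pck1 and Fbp2 were thus too thinly counted to be compared.

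In glycolysis 4 of 6 tested genes rose and 2 fell, beside Gapdhs. The phosphoglycerate mutase Pgam1, which acts between 3- and 2-phosphoglycerate, had 135 reads in rolling and none in stretching. Hexokinases, which trap glucose as glucose-6-phosphate, split by isozyme. Hk2 rose from 3.46 ± 1.27 to 18.1 ± 10.7 (SD, n = 3; limma adjusted p 0.0049), and Hkdc1, a hexokinase-like enzyme, had 82 reads against none. Hk1 fell from 32.1 ± 16.3 to 3.63 ± 4.34 (SD, n = 3), a log2 difference of -3.26 (SE 0.78; limma adjusted p 0.0040) that was -4.04 without rolling 1 and -2.42 without rolling 3. Summed after their values were seen, the 5 hexokinases stood at 45.2 ± 11.9 in the rolling and 36.6 ± 15.0 in the stretching group (SD, n = 3), a difference smaller than the spread between replicates.

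Pfkfb2, which makes and breaks fructose-2,6-bisphosphate, the small molecule that holds fructose-1,6-bisphosphatase back, fell by 2.85 in log2 units (SE 0.62; by limma, adjusted p 0.0024). It stood at 137 ± 116 in the stretching and 14.1 ± 4.29 in the rolling group (SD, n = 3), and its log2 difference was -2.18 without stretching 2 and -3.50 without stretching 3. Its isozymes Pfkfb1 and Pfkfb3, under the level for testing, were counted mainly in rolling, with 69 and 58 reads against 0 and 4. Among glycolytic enzymes that had no read in any library were Gpi1, Aldoa, Tpi1 and Eno1, each a major mammalian form. No gene of the lactate and glycerol phosphate list was tested, and the lactate dehydrogenases Ldha and Ldhb had 0 and 3 reads in rolling and 2 and 0 in stretching.

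At the entry of pyruvate into the TCA cycle, both tested genes rose. Dld, the dihydrolipoamide dehydrogenase shared by the pyruvate and 2-oxoglutarate dehydrogenase complexes, rose from 4.51 ± 2.96 to 178 ± 33.5 (SD, n = 3), a log2 difference of 5.21 (SE 0.52; limma adjusted p 1.7e-05). Dlat, the acetyltransferase of the pyruvate dehydrogenase complex, rose by 2.40 (SE 0.57; limma adjusted p 0.0040). The first subunit of that complex was thinly counted, with 3 and 5 reads for Pdha1, 7 and 25 for Pdha2, and none for Pdhb.

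In the TCA cycle, 2 of the 3 tested genes besides Fh1 and Idh2 rose, and Idh3a, described above, did not pass the threshold. Csl, a citrate synthase-like gene, rose from 15.5 ± 2.08 to 176 ± 88.4 (SD, n = 3), a log2 difference of 3.31 (SE 0.42; limma adjusted p 8.6e-05). The citrate synthase Cs, under the level for testing, had 2 reads in rolling and 11 in stretching. Sdha, the flavoprotein subunit of succinate dehydrogenase, which makes the fumarate that fumarase uses, stood at 10.5, 13.5 and 57.6 in rolling 1, 2 and 3 and at 0.958, 0 and 0 in stretching. Its log2 difference of 4.10 (SE 0.64) was 3.37 without rolling 3. Fh1 and Sdha were both counted almost wholly in rolling. Nothing is read from this, since Sdha passed the filter only through rolling and Fh1 was chosen with its difference known. Of the other subunits of succinate dehydrogenase, all under the level for testing, Sdhb had 9 reads in rolling and 0 in stretching. Sdhc had 4 and 11, and Sdhd had none. Downstream of fumarase, the malate dehydrogenases were under the level for testing, with 16 reads of Mdh1 and 3 of Mdh2 in rolling and none in stretching. The aconitase Aco1, a form outside the mitochondrion, had 28 reads in rolling and none in stretching. After the step of Idh2, Ogdh, a subunit of the 2-oxoglutarate dehydrogenase complex, had 8 reads in rolling and 18 in stretching. Those 18 were 16, 0 and 2 in stretching 1, 2 and 3, and the groups overlapped. Its relative Ogdhl had 0 reads in rolling and 41 in stretching. Dlst, another subunit of the complex, had 4 in each group, and the shared Dld had 626 in rolling and 13 in stretching.

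Genes that feed or drain the cycle rose in 4 of 5 tested cases. Me2, a mitochondrial malic enzyme that turns malate into pyruvate, had 172 reads in rolling and 1 in stretching. Its relative Me1, under the level for testing, had 1 and 20. Acly, which cleaves citrate in the cytosol, had 73 reads in rolling and 4 in stretching. The aspartate-glutamate carrier Slc25a13 had 92 and 2, whereas its relative Slc25a12, under the level for testing, had 0 and 15. Glud1, the glutamate dehydrogenase that makes 2-oxoglutarate, the product also of Idh2, went the other way, with 1 read in rolling and 201 in stretching.

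The pentose phosphate pathway, which draws glucose-6-phosphate aside to make NADPH and ribose, had tested genes high in either group. The lactonase Pgls, its second step, stood at 0.725 ± 1.25 in the rolling and 268 ± 144 in the stretching group (SD, n = 3), with 2 reads against 782. The phosphogluconate dehydrogenase Pgd, the next step, had 266 reads in rolling and none in stretching. In the branch that returns carbon to glycolysis, the transketolase Tkt had 362 reads in rolling and none in stretching, and the transaldolase Taldo1 had 1 in rolling and 396 in stretching. Each of the 4 tested genes was thus counted almost wholly in a single group, 2 in each. All 4 passed the filter only through that group. Of all tested features, 24.4% had at least 30 reads in a group and at most 3 in the other. Rpia, of the same list and under the level for testing, had 18 reads in rolling and 15 in stretching, and its groups overlapped. The first enzyme of the pathway, G6pdx, had 0 reads in rolling and 5 in stretching.

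Of 3 tested genes of glycogen and sugar entry, 2 rose and 1 fell. Phka1, a regulatory subunit of phosphorylase kinase, stood at 383 ± 218 in the rolling and 3.25 ± 1.26 in the stretching group (SD, n = 3), with 1357 reads against 9. Ugp2, which makes the UDP-glucose used to build glycogen, fell by 1.56 in log2 units (SE 0.38; by limma, adjusted p 0.0049).

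In the respiratory chain and ATP synthase, 3 of 8 tested genes rose, 3 fell and 2 did not pass the threshold. Subunits of complex I, a single assembly, lay in opposite groups: Ndufa9 had 131 reads in rolling and none in stretching, whereas Ndufs3 and Ndufs4 had none in rolling and 113 and 167 in stretching. Ndufs1, with 8.64 ± 3.72 in the rolling and 13.8 ± 2.97 in the stretching group (SD, n = 3), did not pass (limma adjusted p 0.20). The phosphate carrier Slc25a3 had 285 reads in rolling and 4 in stretching, and the ADP/ATP carrier Slc25a5 had 651 and 2. Its relatives Slc25a4 and Slc25a31 had 4 and 1 reads in rolling and 1 each in stretching. Atp5a1, a subunit of ATP synthase, stood at 3.16, 175 and 159 in rolling 1, 2 and 3 and at 220.4, 291 and 208 in stretching 1, 2 and 3. Rolling 1 was far below the other libraries, and the log2 difference of -2.28 (SE 1.23; limma adjusted p 0.12) was -0.51 without it, -3.21 without rolling 2 and -3.14 without rolling 3. With scaling to library totals its adjusted p was 0.0081, and with the replicate number as a block 0.0091.

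Regulators of gluconeogenesis and of mitochondrial enzymes were tested in 7 cases, with 4 higher and 2 lower in rolling, against 75.2% of all tested features called in either direction. Others, under the level for testing, lay on both sides. Hnf4a had 0 reads in rolling and 53 in stretching and Cebpb 1 and 49, whereas Insr had 36 and 6 and Prkaa1 32 and 11. The coactivator Ppargc1a, which in mammals promotes transcription of Pck1 and of mitochondrial genes, rose from 12.9 ± 3.18 to 33.8 ± 5.99 (SD, n = 3), a log2 difference of 1.33 (SE 0.37; limma adjusted p 0.0089). Its adjusted p was 0.17 with scaling to library totals. Its relative Ppargc1b stood at 34.8, 39.2 and 276 in rolling 1, 2 and 3 and at 0, 1.13 and 3.32 in stretching. The log2 difference of 5.13 (SE 0.84) was 4.18 without rolling 3. The insulin-like growth factor receptor Igf1r had 66 reads in rolling and 9 in stretching, a log2 difference of 2.37 (SE 0.47).

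Creb1, a transcription factor through which glucagon acts on Pck1 in mammalian liver, fell from 65.6 ± 25.6 to 13.5 ± 12.6 (SD, n = 3; limma adjusted p 0.013). Its adjusted p was 0.051 and 0.076 without stretching 1 and 2, and its log2 difference of -2.74 was -3.51 without rolling 1 and -1.70 without rolling 2. Irs1, an adaptor of the insulin receptor, had 5 reads in rolling and 83 in stretching. Its log2 difference of -3.72 (SE 0.71) was -4.42 without rolling 3. The glucocorticoid receptor Nr3c1 rose by 1.87 (SE 0.69; limma adjusted p 0.033). Its groups overlapped, and its adjusted p lay between 0.082 and 0.14 without rolling 2, rolling 3, stretching 1 or stretching 2, while its log2 difference was 2.58 without stretching 3. The adjusted p of Nr3c1 was 0.062 by edgeR and 0.12 by DESeq2. Prkaa2, a catalytic subunit of the energy sensor AMPK, stood at 9.61 ± 3.02 and 11.7 ± 1.63 (SD, n = 3) and was not called (limma adjusted p 0.52).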

How the data were processed

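The authors deposited, per the file headers, a normalised signal for each feature in each sample, the mean of these, and their own comparison as a log2 fold change, its error, a Wald score and p-values before and after adjustment. The submitters' processing notes list BWA, DESeq2 and mm10 and give no roles. The column heads curl and strait were read as words for rolling and stretching. All 6 were used. Each value divided by the smallest above 0 in its column gave a whole number of reads (100% of values, largest deviation 1.0e-09), and DESeq2 1.42.0 on these reads gave the authors' deposited log2 fold changes within 4.1e-05.

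The test was limma 3.58.1 (R 4.3.3) with a mean-variance trend, two-sided, on log2(value + 1) of features with a mean of at least 10, with Benjamini-Hochberg adjustment over all 2948 and a threshold of 0.05. This scale understates the change of low features. Read ratios were adjusted by size factors and given exact 95% counting intervals with scipy 1.17.1. The fit was tested on simulated data. The members and lists were chosen with earlier results of these data known. Genes named were the 5 enzymes, their isozymes, list genes with a mean of at least 10 and the features with the most similar profile. Genes with fewer reads were added after their values were seen. Among them were neighbours of the 5 enzymes in their pathways, relatives of other list genes, and some regulators and markers. Some genes that are included in the counts are not reported here by name. The settings varied were the pseudocount (0.5 or 8), the filter (none, or a mean of 100), the scaling by TMM, library totals or quantiles, and the model (edgeR 4.0.16, DESeq2 or a replicate block), and each library was left out in turn.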

Additional observations from a re-analysis of the deposited data

How the results depend on the processing

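The number of genes called, 2217 of 2948, was 5773 of 18260 without a filter and 284 of 323 with a minimum mean of 100, where the number tested changes. It was 2076 to 2173 with a library left out, and 2244 by edgeR and 2050 by DESeq2. The 28 calls among 31 other central carbon genes became 51 of 161 and 4 of 5 under the same filters, and stayed at 28 with any library left out. Genes counted almost wholly in a single group could hardly lose their call this way, so the count is a description. Of 79 values of the 5 enzymes under the alternatives, none changed sign and 10 moved by more than the spread between replicates, all with another pseudocount or a count model. Pck1 stood at 5.70, Fbp2 at -4.99, Gapdhs at -6.24 and Fh1 at 3.14 with a pseudocount of 8. Fh1, without a read in stretching, stood at 9.08 by edgeR and 8.38 by DESeq2. TMM and library totals shifted the median of all tested features by -0.14 and -0.16, and Idh2 stood at -1.46 and -1.50 there. Idh3a, 0.10, was -0.031 with TMM, -0.063 with library totals, -0.17 by edgeR, -0.041 by DESeq2, and -0.38 to 0.51 with a library left out, below 0 without rolling 3 and without stretching 1. The cause of these changes was not tested. Same-numbered samples were not paired by the labels or by their deviations (correlations 0.0209, -0.00664 and 0.0087), and with the replicate block 2224 genes were called, and 29 of the 31. Depth limits the enzymes with few reads: a count of 0 in a library allows up to 3 reads, and genes with a mean under 10 were not tested.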

Other observations

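The features whose profile over the 6 libraries lay nearest to each enzyme were taken from 296 candidates with a mean of at least 100 outside the central carbon lists. The measure was the root mean square difference of log2(value + 1) after each feature's own mean was subtracted, and a small value means a like difference between groups and a like spread within them. It is a description, since most tested features follow the groups.

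Nearest to Gapdhs was Anln, anillin, a scaffold protein of cell division, at 0.20. Anln stood at 7.38, 4.90 and 5.43 in rolling 1, 2 and 3 and at 908, 1501 and 671 in stretching 1, 2 and 3, with the highest and lowest stretching libraries being the same as for Gapdhs. Asb13 and the Wnt receptor Fzd3 followed at 0.30 and 0.31. Anln was also near Fbp2, at 0.34, after Mir7234 at 0.22 and the cyclophilin Ppic at 0.33. The features nearest to Pck1 were farther away, with Ppp1r3fos at 0.60, Vwa7 at 0.64 and the stress-granule protein G3bp2 at 0.67. For Fh1 they were Gemin4 at 0.50, Trp63 at 0.51 and AU018091 at 0.57.

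Nearest to Idh2 were the noncoding RNA Kcnq1ot1 at 0.29, Coq9 at 0.42 and the sodium channel Scn11a at 0.52. Coq9, which takes part in the synthesis of coenzyme Q, an electron carrier of the respiratory chain, stood at 149, 175 and 221 in rolling 1, 2 and 3 and at 466, 399 and 430 in stretching 1, 2 and 3. Its rolling and stretching values did not overlap, which also held for 78.7% of all tested features. Nothing is read from this, since Coq9 was picked for its likeness to Idh2.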
